A study of Mus musculus with 6 samples.

Results

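Heart muscle and brain are both electrically excitable tissues, and the comparison described here set the ribosome densities of 2 such tissues side by side. Ribosome profiling sequences the short mRNA fragments that ribosomes protect, so its read density over a coding sequence tracks how much of that mRNA is being translated. The 6 libraries of the series came from untreated wild-type C57BL/6J mice aged 4 weeks, 1 library for each of 6 tissue labels (heart, lung, brain, kidney, small intestine and colon). The library labelled heart carried heart markers. The library labelled small intestine carried brain markers, among them Snap25, a protein of synaptic vesicle fusion, at 683 RPKM, the reads per kilobase of coding sequence scaled to a common library size, against 0 to 13.2 RPKM in the other 5 libraries. It is called the Snap25-rich library below. For every mRNA the log2 ratio of RPKM + 1 was taken, heart library over Snap25-rich library, so positive values mean more in the heart library. Past or within 4-fold refers to RPKM + 1, so mRNAs of low RPKM can lie within 4-fold although their printed RPKM differ by more. An mRNA was compared where both libraries list it and at least 1 of them holds 10 or more of its reads, which left 12918 of the 18437 mRNAs listed in any library. With 1 library a side there is no spread between animals and no test. The values are descriptions of these libraries, and the 95% intervals given for ratios cover counting error only.

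In heart muscle a sodium current starts each action potential, calcium entering through L-type channels triggers release of more calcium from the sarcoplasmic reticulum, and a pump returns it to that store so that the sarcomeres can relax. Neurons use a larger set of sodium, calcium and potassium channels for firing along axons and release at synapses, and their long processes depend on microtubule tracks and neurofilaments. The working heart draws most of its energy from fatty acid oxidation in abundant mitochondria, while the brain relies mainly on glucose.

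All 8 cardiomyocyte markers lay between 163 and 24269 RPKM in the heart library and between 0.51 and 19.8 RPKM in the Snap25-rich library, with none at 0. All 9 neuron markers lay between 50.1 and 2332 RPKM in the Snap25-rich library and between 0 and 8.63 RPKM in the heart library, where Rbfox3 was listed at 0. The oligodendrocyte marker Mag, at 0.84 against 2339 RPKM, was high in the Snap25-rich library too. The heart label thus matched its markers, while the tissue labels of 4 of the 6 libraries went against their markers. The heart library also held more of most markers of smooth muscle, with 3 of 4 past 4-fold, of endothelium, with 4 of 5, and of fibroblasts, with 3 of 6. Over all mRNAs compared, 10.2% were past 4-fold higher. Of the 6 fibroblast markers 1 was lower in the heart library, Pdgfra, at 98.1 against 123 RPKM. Of the markers from other organs, lung Sftpc stood at 200.1 RPKM in the heart library and 3.84 in the other, and intestinal Fabp2 at 21.9 and 280 RPKM. Of the 6 intestinal markers 4 were past 4-fold lower in the heart library and 1 higher, Muc2, at 38.3 against 8.20 RPKM. The summed lung epithelium list was at 472 and 8.56 RPKM and the summed intestinal list at 86.6 and 400 RPKM. The part of these other cell types in the ratios below was not tested, and fewer cells of a type cannot be told apart from less translation per cell. Footprints alone also do not separate the amount of an mRNA from the translation of each copy.

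The heart library held 8183035 reads on coding sequences and the Snap25-rich library 7644645, so 3 reads on a coding sequence of 1 kilobase amounted to 0.37 and 0.39 RPKM. The mRNA of Kri1, a ribosome biogenesis factor, took 14.1% of the reads of the Snap25-rich library and 1.04% of those of the heart library, and every other RPKM in the Snap25-rich library is lower for it. Leaving Kri1 out of the totals moved the median log2 ratio of all mRNAs by -0.17. The authors dropped reads that map to several places, so values of mRNAs with near-identical copies, such as Tpm3, Cycs, Gapdh, the alpha tubulins and the actins, are uncertain.

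Footprint levels differed widely between the 2 libraries. The median log2 ratio over the 12918 mRNAs was -0.12, the middle 50 percent of mRNAs ran from -1.21 to 0.87, and 6292 mRNAs, 48.7%, lay within 2-fold. At or above 4-fold higher in the heart library were 1323 mRNAs, 10.2% of those compared, and 1947 mRNAs, 15.1%, were at or beyond 4-fold lower. Together 3270 mRNAs, 25.3%, were past 4-fold. The threshold has no gap at its edge, with Snap23 at 2.00 just inside and Sra1 at 1.999 just outside. The mRNAs past 4-fold higher took 52.4% of the reads of the heart library and 3.11% of those of the Snap25-rich library. Those past 4-fold lower took 3.30% and 54.9%. Their coding sequences had a median length of 1149 bases on the heart side and 1569 bases on the Snap25-rich side, against 1479 bases over all mRNAs compared.

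The 10 highest log2 ratios belonged to Mb, Myl2, Nppa, Tnnt2, Myl7, Myl3, Myh6, Tnni3, Cox8b and Ckm. They encode the oxygen store myoglobin, an atrial hormone, sarcomere proteins and muscle-type enzymes. Mb stood at 62856 RPKM in the heart library, the highest of any mRNA there, and at 19.3 RPKM in the Snap25-rich library, a log2 ratio of 11.60. Nppa, the atrial natriuretic peptide precursor, stood at 3306 and 1.15 RPKM. Among the 10 lowest ratios were those of Mag, Camk2a, Cplx1, Syt1, Aplp1, Pcsk2, Scg2, Camk2n2 and Nrgn, which encode proteins of myelin, synapses and secretory granules. Mag, the myelin-associated glycoprotein, had the lowest at -10.31, and Camk2a, the alpha subunit of calmodulin-dependent kinase II, followed at 7.83 against 6863 RPKM and -9.60.

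The 4 subjects of the comparison leaned to different sides. Of 131 mRNAs of ion channels and the sodium pump compared, 11 were past 4-fold higher in the heart library, 8.40% beside 10.2% over all mRNAs, and 70 past 4-fold lower, 53.4% beside 15.1%, with a median log2 ratio of -2.44. Calcium handling, with 87 mRNAs, divided into 14 higher, 16.1%, and 38 lower, 43.7%, with a median of -1.13. Of 228 energy metabolism mRNAs, 152 were past 4-fold higher and 16 lower, a share of 66.7% higher with a median of 2.53. The cytoskeleton, with 198 mRNAs, had 68 higher, 34.3%, and 43 lower, 21.7%, and a median of 0.45. The same medians of the sub-lists spread from -7.05 for intermediate filaments to 5.32 for the thick filament of the sarcomere.

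**Figure D1:**
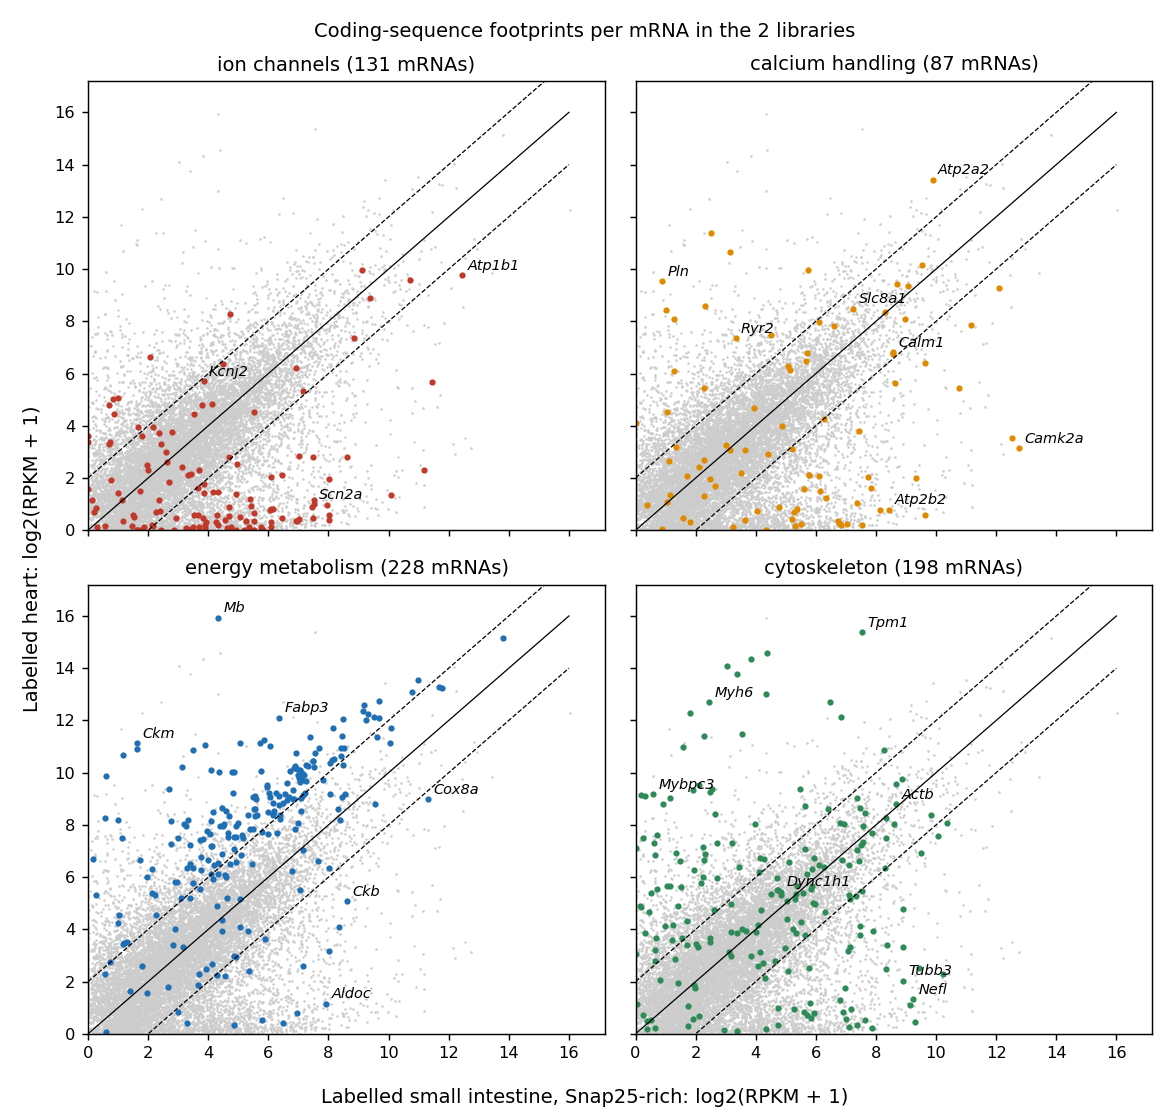
log2(RPKM + 1) of each mRNA in the Snap25-rich library (x axis) and the heart library (y axis), 1 panel for each subject. Grey points are all 12918 mRNAs compared, coloured points the members, the solid line marks equal values and the dashed lines 4-fold. Energy metabolism lies mostly above the upper dashed line, with 152 of 228 members past it, and ion channels mostly below the lower one, with 70 of 131.

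**Figure D2:**
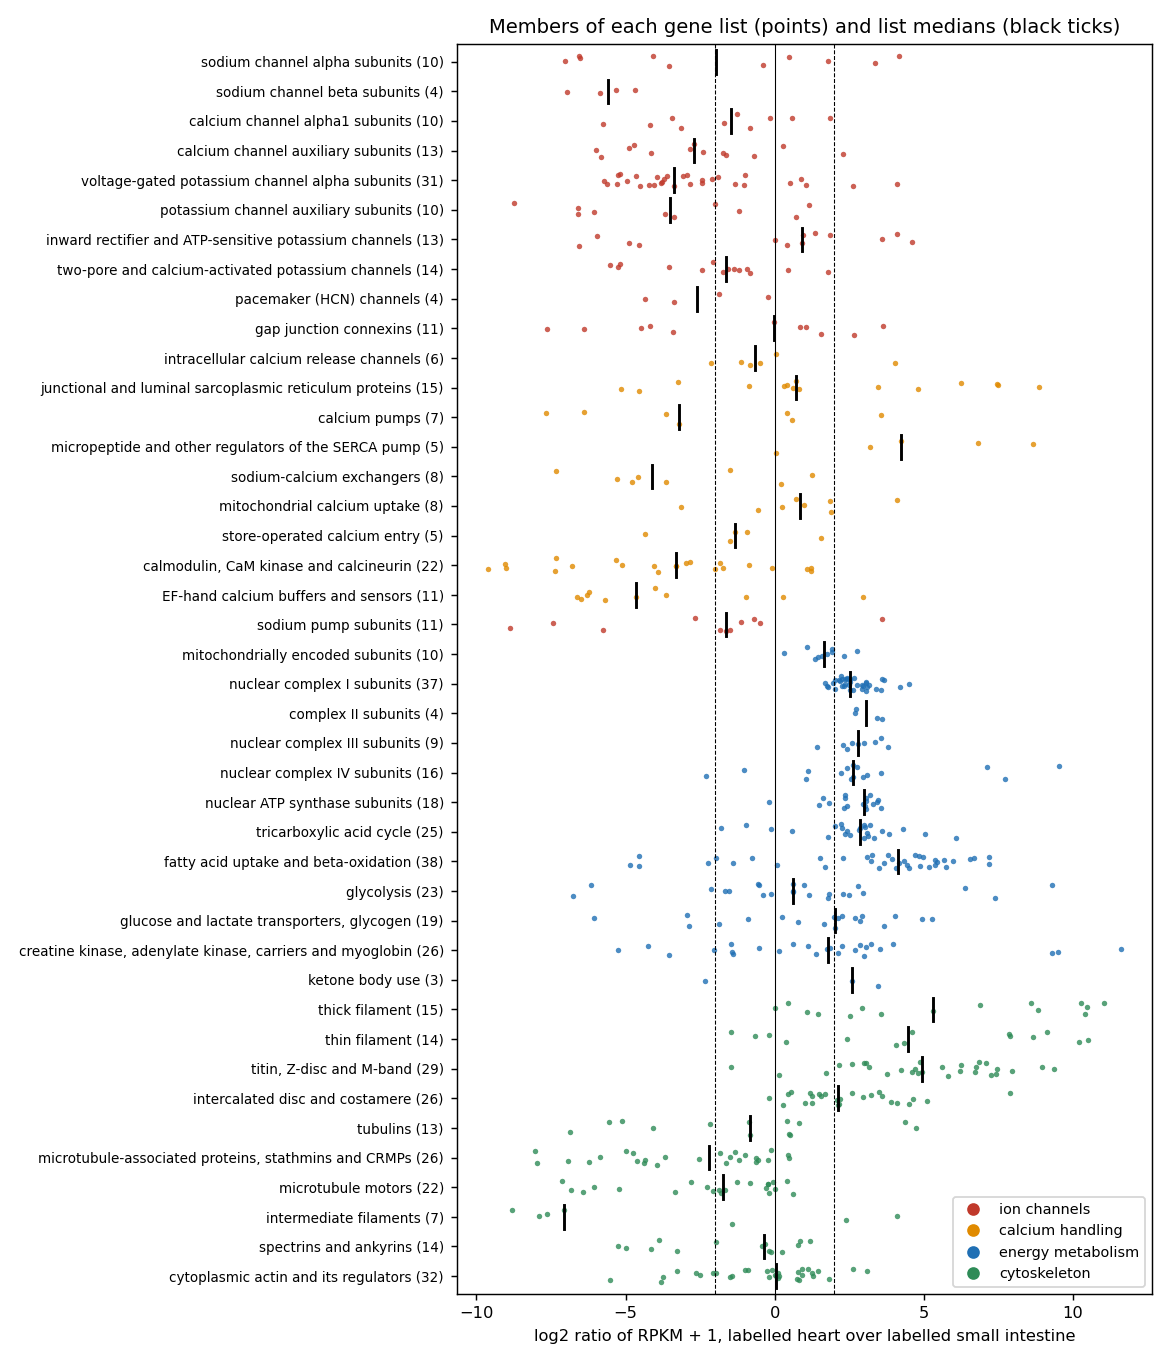
log2 ratio of RPKM + 1, heart library over Snap25-rich library (x axis), for every member compared of 42 gene lists, with the number of points in brackets. Black ticks are list medians and dashed lines mark 4-fold; the medians of the nuclear respiratory chain lists lie between 2.52 and 3.07, with single members of complex IV from -2.32 to 9.52, and most channel and calcium lists have points on both sides of 0.

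Voltage-gated sodium channels drive the upstroke of the action potential, and the pore subunits of central neurons were far higher in the Snap25-rich library. Scn8a, at 0.39 against 179.9 RPKM, Scn1a, at 0.28 against 120 RPKM, and Scn2a, at 1.00 against 182 RPKM, are the main ones among these. Scn8a was 462-fold higher in the Snap25-rich library (95% interval 296 to 768). In that library Scn2a made up 35.3%, Scn8a 34.9% and Scn1a 23.2% of the summed RPKM of the voltage-gated sodium pore subunits, 515 RPKM in all. Scn4a, the skeletal muscle channel, stood at 9.27 RPKM and was listed at 0 in the Snap25-rich library, and Scn7a, a sodium sensor, at 11.2 against 2.49 RPKM. Nalcn, the sodium leak channel, was at 0.16 against 18.9 RPKM and Scn3a at 1.61 against 29.2 RPKM.

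All 4 auxiliary beta subunits, which modulate gating and surface expression of the pore, were past 4-fold lower in the heart library. Scn2b stood at 0.95 against 244 RPKM and Scn4b at 5.90 against 395 RPKM. Scn3b stood at 0.76 against 70.0 RPKM. All 4 beta subunits thus lay on the Snap25-rich side, whereas the pore subunits divided.

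Among the 10 pore subunits of voltage-gated calcium channels the heart library was dominated by 1 member. Cacna1c, the L-type channel that triggers contraction, reached 80.6 RPKM in the heart library and 21.4 in the Snap25-rich library, a ratio of 3.77 (3.52 to 4.03) that stayed within 4-fold. It made up 90.7% of the family in the heart library and 14.3% in the other. There Cacna1e, the R-type channel, led at 67.0 RPKM, 44.8% of the family, against 0.25 RPKM in the heart library. The presynaptic channels Cacna1a, at 0.30 against 22.4 RPKM, and Cacna1b, at 0.07 against 8.52 RPKM, and the T-type Cacna1i, at 0.02 against 10.1 RPKM, were also past 4-fold lower in the heart library. The other T-type members differed less, with Cacna1g at 3.46 against 9.80 RPKM and Cacna1h at 2.61 against 5.45 RPKM. Cacna1d stood at 0.65 against 4.31 RPKM, Cacna1f at 0.08 against 0.22 RPKM and the skeletal muscle subunit Cacna1s at 0.79 against 0.19 RPKM. The beta subunits divided along the same line. Cacnb2, at 14.5 against 2.197 RPKM, was the 1 auxiliary subunit past 4-fold higher, and Cacnb4, at 25.5 RPKM in the Snap25-rich library, was listed at 0 in the heart library. Cacna2d1, the most abundant auxiliary subunit in either library, was close in both at 73.9 and 121 RPKM.

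Potassium channels repolarize the membrane, and 22 of 31 voltage-gated pore subunits were past 4-fold lower in the heart library. The lowest ratios were those of Kcnh1, at 0.04 against 54.1 RPKM, Kcna2, at 0.08 against 52.4 RPKM, and Kcna1, at 0.74 against 66.8 RPKM. The 2 past 4-fold higher were Kcnq1, the slow delayed rectifier of the heart, at 32.7 against 0.98 RPKM, and Kcng2, a silent subunit, at 8.996 against 0.64 RPKM. Kcnq1 has a high level outside the heart library as well, between 9.19 and 41.0 RPKM in the other 4 libraries. Its partner Kcne1 had 9 reads in the heart library, or 2.84 RPKM, and was not compared. Kcnh2, the rapid delayed rectifier, was at 8.90 against 4.35 RPKM. For the transient outward current both libraries used Kcnd2, at 22.3 and 45.4 RPKM, more than Kcnd3, at 1.68 and 13.4 RPKM, and the partner Kcnip2 stood at 27.6 and 16.5 RPKM. The auxiliary subunits Dpp6, at 1.52 against 1072 RPKM, and Dpp10, at 0.36 against 130 RPKM, which join the same channel in neurons, were far lower in the heart library. Kcnip3, at 0.29 against 124 RPKM, and Kcnab2, at 2.94 against 259 RPKM, lay on that side too.

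The inward rectifiers set the resting potential, and theirs was the channel list with a median above 0, at 0.91. Abcc9, the sulfonylurea receptor of muscle, at 98.1 against 3.13 RPKM, Kcnj5, at 26.7 against 0.62 RPKM, and Kcnj8, at 20.9 against 0.82 RPKM, were past 4-fold higher in the heart library. Kcnj8 and Abcc9 form an ATP-sensitive channel that is also found in vessel walls. Kcnj2, the main ventricular inward rectifier, was at 51.3 against 13.3 RPKM, a ratio of 3.84 (3.17 to 4.69). Its paralogue Kcnj4 had 1219 reads or 119 RPKM in the Snap25-rich library and was not listed in the heart library, which sets it at least 435-fold higher there, with 3 reads taken for the heart library. Kcnj10 and Kcnj16, the glial pair, stood at 0.86 against 173 and 0.58 against 45.5 RPKM, and Kcnj6 and Kcnj9 of neurons at 0.10 against 67.2 and 0.41 against 32.4 RPKM.

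Of the two-pore and calcium-activated potassium channels none was past 4-fold higher in the heart library and 6 of 14 were lower, led by Kcnk9, listed at 0 against 45.2 RPKM, Kcnk1, at 0.73 against 64.8 RPKM, and Kcnma1, the big-conductance channel, at 0.26 against 45.1 RPKM. Kcnk3, the acid-sensitive TASK-1, was highest of the list in the heart library at 14.4 against 3.52 RPKM. The pacemaker channels were higher in the Snap25-rich library than in any other of the 6. Hcn2 stood at 5.99 against 24.6 RPKM and Hcn3 at 0.10 against 10.4 RPKM. Hcn4, the channel of the sinus node, was at 1.83 against 2.32 RPKM, a ratio of 0.79 whose interval (0.54 to 1.15) spans 1.

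Connexins form the gap junctions that couple cells, and their median log2 ratio was -0.01, a value that depended on the setting, at -3.40 with at least 50 reads in either library, -1.71 over those listed in either library and 0.26 with no read minimum, and it also turned positive (0.033 to 0.11) when centred, thinned or without mitochondrially encoded mRNAs. Gja1, the chief ventricular connexin and also an astrocyte connexin, was the most abundant in both libraries at 986 and 548 RPKM. Gja5, the connexin of atria, conduction fibres and arteries, stood at 11.3 RPKM with 102 reads in the heart library and was listed at 0 in the other, at least 31.8-fold higher. Gjc1 was at 9.36 against 0.66 RPKM. The glial connexins went the other way, with Gjb6 at 0.31 against 259 RPKM and Gjb2 at 0.90 against 41.5 RPKM. Gjd2, the neuronal connexin, had 30.3 RPKM in the Snap25-rich library and was not listed in the heart library.

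The sodium pump restores the gradients that all these channels use. Its beta subunits, which carry the pump to the membrane, lay on the Snap25-rich side. Atp1b1 was at 875 against 5572 RPKM and Atp1b2 at 50.4 against 2774 RPKM. Of the regulatory FXYD proteins, Fxyd1, phospholemman, was 12.4-fold higher in the heart library (9.37 to 16.7), at 311 against 25.1 RPKM, and Fxyd7 was at 0.51 against 261 RPKM. Of 11 pump mRNAs compared, Fxyd1 alone was past 4-fold higher, 9.09% beside 10.2% over all mRNAs. Another 4 were past 4-fold lower, 36.4% beside 15.1%.

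In several lists calcium handling divided between members of the same family. Among release channels the heart library was led by Ryr2, the cardiac ryanodine receptor, at 163 RPKM in the heart library and 9.04 in the Snap25-rich library, a ratio of 18.0 (16.9 to 19.2). The Snap25-rich library led instead with Itpr1, the neuronal inositol trisphosphate receptor, at 7.54 against 36.1 RPKM. Ryr2 made up 93.2% of the 6 release channels in the heart library and 16.9% in the other, where Itpr1 made up 67.4%. Ryr1 was at 0.04 against 0.84 RPKM, Ryr3 at 0.37 against 2.00 RPKM, Itpr2 at 2.88 against 4.52 RPKM and Itpr3 at 1.11 against 1.05 RPKM.

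Of 15 junctional and luminal proteins of the sarcoplasmic reticulum, which build the release unit, 6 were past 4-fold higher in the heart library. That is 40% beside 10.2% over all mRNAs. Another 3 were past 4-fold lower, 20%, which is nearer the 15.1% over all mRNAs. The remaining 6 lay within 4-fold, and the median was 0.71. Hrc, a calcium-binding protein of the lumen, stood at 2658 against 4.67 RPKM, 569-fold (457 to 719). Casq2, the cardiac calcium store protein calsequestrin, was at 1603 against 7.93 RPKM and Trdn, triadin, at 347 against 1.01 RPKM. Srl was at 378 against 3.98 RPKM and Jph2, the junctophilin that holds the store against the surface membrane, at 66.8 against 1.44 RPKM. The neuronal junctophilins Jph3, at 0.11 against 38.4 RPKM, and Jph4, at 0.32 against 11.5 RPKM, lay on the other side, as did Fkbp1b, at 0.75 against 40.4 RPKM. Tmem38a, a counter-ion channel of the store, was abundant in both at 1129 and 744 RPKM, and Fkbp1a too at 273 and 496 RPKM.

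Atp2a2, the SERCA pump that refills the store, was the leading calcium transporter of both libraries, at 11032 and 943 RPKM, and took 3.46% of all reads of the heart library and 0.30% of those of the other. The ratio was 11.7 (11.5 to 11.9). It made up 99.1% of the 7 calcium pumps in the heart library and 39.8% in the Snap25-rich library. The plasma membrane pumps, which carry calcium out of the cell, made up most of the rest there, with Atp2b1 at 84.7 against 798 RPKM, Atp2b2 at 0.72 against 347 RPKM, Atp2b4 at 13.0 against 172 RPKM and Atp2b3 at 0.27 against 106.6 RPKM. The remaining SERCA genes were low in both, with Atp2a1 at 0.94 against 0.31 RPKM and Atp2a3 at 5.42 against 3.82 RPKM.

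Regulators of SERCA, which are small membrane peptides and the soluble sensor S100a1, were the calcium list with the highest median, 4.24 over 5 compared. That median is the ratio of S100a1 itself, and it was 2.15 with at least 10 reads in both libraries, where Pln, Sln and Strit1 drop out. Phospholamban and sarcolipin, its cardiac inhibitors, are encoded by coding sequences of 156 and 93 bases without the stop codon, which are shown because footprints on so few bases carry the largest ratios of the list (GENCODE annotation of GRCm39, genes at chr10:53199622-53223512 and chr9:53742537-53761846, both on the plus strand). Capitals mark the start codon.
Pln: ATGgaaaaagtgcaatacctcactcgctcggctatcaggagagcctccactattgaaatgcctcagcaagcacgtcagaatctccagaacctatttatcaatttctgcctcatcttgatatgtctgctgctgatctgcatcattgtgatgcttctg
Sln: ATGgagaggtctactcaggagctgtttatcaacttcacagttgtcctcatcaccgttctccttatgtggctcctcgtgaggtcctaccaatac
Pln had 940 reads or 736 RPKM in the heart library and 1 read or 0.84 RPKM in the Snap25-rich library, a ratio of 878 with an interval of 157 to 34722. Sln had 207 reads or 272 RPKM and 1 read or 1.41 RPKM, a ratio of 193 (34.3 to 7675). Both intervals are wide because 1 read stands on the lower side, yet both lie far above 4. Strit1, which encodes an activator of the pump, had 36 and 3 reads, 43.1 and 3.85 RPKM, a ratio of 11.2 (3.54 to 56.9), and S100a1, a calcium sensor, stood at 1008 against 52.4 RPKM. Arln, a regulator of wider expression, was equal within counting error at 330 and 317 RPKM. Erln and Mrln had too few reads to compare.

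The exchangers leaned the other way, with 5 of 8 past 4-fold lower and a median of -4.11. Slc8a1, the cardiac sodium-calcium exchanger, was at 356 against 150 RPKM, a ratio of 2.37 (2.27 to 2.47), and led the 3 Slc8 exchangers in both libraries. Slc24a2, a potassium-dependent exchanger of neurons, was at 3.04 against 641 RPKM. Slc8a2 was at 0.18 against 44.6 RPKM, Slc8a3 at 0.35 against 35.9 RPKM, Slc24a3 at 0.63 against 38.1 RPKM and Slc24a4 at 3.34 against 53.1 RPKM. Slc24a5, at 0.24 against 2.52 RPKM, and the mitochondrial Slc8b1, at 1.53 against 1.19 RPKM, were low in both.

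Of the 8 members of mitochondrial calcium uptake 6 lay within 4-fold, a share close to that of all mRNAs (9648 of 12918), 1 was past 4-fold higher and 1 lower, and the ratios ran from -3.14 to 4.10. Mcu, the pore, was at 8.61 against 7.10 RPKM, Smdt1 at 680 against 410 RPKM and Letm1 at 69.2 against 34.3 RPKM. The gatekeepers stood at 251 against 67.7 RPKM for Micu2 and 0.08 against 8.504 RPKM for Micu3, the neuronal form. Mcub, the inhibitory pore subunit, was at 8.03 against 1.52 RPKM, and Mcur1 had 135 reads or 16.2 RPKM in the heart library and was listed at 0 in the other. For store-operated entry, Stim1 was at 6.52 against 20.4 RPKM, Stim2 at 2.27 against 5.26 RPKM, Orai1 at 5.36 against 1.15 RPKM and Orai3 at 3.51 against 10.4 RPKM. Orai2 was listed at 0 in the heart library and at 19.3 RPKM in the Snap25-rich library.

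Calmodulin and the enzymes it activates lay mostly on the Snap25-rich side, with 15 of 22 past 4-fold lower in the heart library. CaM kinase II summed to 135 RPKM in the heart library, of which Camk2d made up 82.2%, and to 7022 RPKM in the Snap25-rich library, of which Camk2a made up 97.7%. The 2 calmodulin-binding proteins of synapses Nrgn, at 10.4 against 5950 RPKM, and Gap43, at 0.18 against 131 RPKM, were past 4-fold lower in the heart library, as were the inhibitors Camk2n1, at 42.3 against 1742 RPKM, and Camk2n2, at 0.52 against 799 RPKM. Calmodulin itself, which 3 genes encode as the same protein, summed to 830.3 and 5107 RPKM. Calm2 led in both at 611 and 4352 RPKM. The calcineurin subunits Ppp3r1, at 230 against 2292 RPKM, and Ppp3ca, at 48.8 against 394 RPKM, lay on the same side, and the inhibitors of calcineurin on the other, with Rcan1 at 77.1 against 32.8 RPKM and Rcan2 at 223 against 96.0 RPKM, both within 4-fold. Of 11 EF-hand buffers and sensors 8 were past 4-fold lower, led by Calb2, at 0.15 against 113 RPKM, Hpcal4, at 0.21 against 108 RPKM, and Vsnl1, at 1.07 against 163 RPKM. S100a6, at 176 against 21.6 RPKM, was the 1 member past 4-fold higher, a protein also made by fibroblasts.

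Energy metabolism lay mostly on the heart side, with 192 of 228 ratios above 0 and 36 below, and most evenly in the respiratory chain. Of 37 nuclear subunits of complex I, 33 were past 4-fold higher in the heart library and none lower, and all 37 ratios fell between 1.69 and 4.51 with a median of 2.52. The lowest were Ndufa1, at 203 against 62.3 RPKM, Ndufb6, at 59.2 against 17.0 RPKM, and Ndufb3, at 90.1 against 25.6 RPKM. The highest were Ndufc1, at 153 against 5.74 RPKM, Ndufb11, at 399.8 against 21.1 RPKM, and Ndufv1, at 326 against 25.0 RPKM. All 4 subunits of complex II were past 4-fold higher, with Sdha at 1198 against 183 RPKM, Sdhb at 515 against 47.5 RPKM, Sdhc at 329 against 48.8 RPKM and Sdhd at 198 against 15.6 RPKM. Of 9 nuclear subunits of complex III 8 passed 4-fold and only Uqcrc2, at 208 against 76.9 RPKM, did not. The ATP synthase had 14 of 18 past 4-fold, with its catalytic subunit Atp5f1b at 6203 against 577 RPKM and its inhibitor Atp5if1 at 289 against 333 RPKM, the 1 member below 0. Over all nuclear subunits of the chain and the synthase, 71 of 84 were past 4-fold higher, and the heart library held the highest level of the 6 libraries for 78 of them. They took 5.71% of the reads of the heart library (95% Wilson interval 5.70 to 5.73) and 0.83% of those of the Snap25-rich library (0.82 to 0.83).

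The 10 mitochondrially encoded subunits, made by mitochondrial ribosomes, were all higher in the heart library too, but by less, with a median of 1.67 and 2 past 4-fold. The most abundant was mt-Atp6 at 36338 against 14382 RPKM, the highest mRNA of energy metabolism in the Snap25-rich library. The smallest ratio was that of mt-Atp8, at 395 against 320 RPKM, and the largest that of mt-Nd1, at 970 against 143 RPKM. Their share of reads was 5.31% and 1.95%.

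Cytochrome oxidase had a wider range of ratios, and 3 of its nuclear subunits exist in a heart and muscle form and a general form. Cox8b, the muscle form of subunit 8, stood at 1650 RPKM in the heart library and 1.25 in the Snap25-rich library, with 2835 reads against 2, a ratio of 1324 (366 to 10940). Cox8a, the general form, went the other way at 508 against 2535 RPKM, 4.99-fold (4.63 to 5.38), the only respiratory chain subunit past 4-fold lower. The 2 coding sequences are shown because this is the cytochrome oxidase pair with ratios past 4-fold in opposite directions (GENCODE annotation of GRCm39, Cox8b gene at chr7:140477069-140480359 and Cox8a gene at chr19:7192515-7194997, both on the minus strand, stop codons left out). Capitals mark bases that differ or have no partner in a global alignment of the pair.
Cox8b: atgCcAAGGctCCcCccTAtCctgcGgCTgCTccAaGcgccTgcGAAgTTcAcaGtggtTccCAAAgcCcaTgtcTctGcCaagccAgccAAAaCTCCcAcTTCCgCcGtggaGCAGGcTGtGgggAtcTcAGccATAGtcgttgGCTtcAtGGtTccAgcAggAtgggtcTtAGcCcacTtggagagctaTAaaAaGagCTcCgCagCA
Cox8a: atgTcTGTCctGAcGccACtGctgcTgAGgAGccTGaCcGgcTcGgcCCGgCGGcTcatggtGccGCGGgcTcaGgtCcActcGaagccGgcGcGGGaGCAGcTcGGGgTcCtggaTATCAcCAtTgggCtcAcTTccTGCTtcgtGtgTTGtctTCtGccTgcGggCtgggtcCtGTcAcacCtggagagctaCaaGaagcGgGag
They are identical at 118 of 200 paired positions, 59.0%, and the longest identical stretch in the alignment is 10 bases. Cox6a2 was at 1202 against 7.64 RPKM beside Cox6a1 at 96.1 against 199 RPKM. Cox7a1 was at 309 against 0.49 RPKM, 676 reads against 1, a ratio of 632 (113 to 24980), beside Cox7a2 at 335 against 70.9 RPKM. The coding sequences of these pairs were 69.0% and 70.4% identical at paired positions. In the heart library the muscle form made up 76.4% of subunit 8, 92.6% of subunit 6A and 48.0% of subunit 7A, and in the Snap25-rich library 0.05%, 3.70% and 0.69%.

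In the tricarboxylic acid cycle 20 of 25 mRNAs were past 4-fold higher in the heart library and none past 4-fold lower. By the log2 ratio of RPKM + 1, Idh2, the mitochondrial isocitrate dehydrogenase, was highest at 2222 against 32.2 RPKM. It was followed by Pdk4, which shuts off pyruvate entry, at 39.1 against 0.21 RPKM, and Ogdh at 1062 against 52.8 RPKM. Pdk3, at 2.65 against 11.7 RPKM, and Pdp1, at 15.97 against 32.4 RPKM, had the lowest. Fatty acid uptake and oxidation had the highest median of the energy lists, 4.12, with 28 of 38 past 4-fold higher. Acadm and Acadl, which open the oxidation of medium and long chains, were at 2423 against 56.96 and 1088 against 16.2 RPKM. Cpt1b, the muscle gate of mitochondrial import, had 1931 reads against 2, at 102 against 0.11 RPKM, a ratio of 902 (249 to 7453). Its brain paralogue Cpt1c was at 0.26 against 28.2 RPKM. Fabp3, the fatty acid carrier of heart muscle, was at 4421 against 81.3 RPKM. Fabp4, at 291 against 0.99 RPKM, Lpl, at 2131 against 13.8 RPKM, and Cd36, at 667 against 5.45 RPKM, are also genes of endothelium or fat, and 4 of 5 endothelial markers were past 4-fold higher in the heart library. On the other side stood acyl-CoA synthetases, with Acsl6 at 8.12 against 259.9 RPKM and Acsl3 at 5.09 against 140 RPKM, while Acsl1 was at 365 against 23.1 RPKM. Of the 3 mRNAs of ketone body use, Oxct1 was at 835 against 138 RPKM, Acat1 at 247 against 21.5 RPKM and Bdh1 at 3.68 against 22.6 RPKM.

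In glycolysis 7 of 23 were past 4-fold higher, 30.4% beside 10.2% over all mRNAs, with a median of 0.63. Another 3 were past 4-fold lower, 13.0%, a share no higher than the 15.1% over all mRNAs. Isozymes of the same step had opposite ratios. Eno3 stood at 947 against 0.50 RPKM and Eno2, the neuronal enolase, at 0.75 against 123 RPKM, while Eno1 was at 45.0 against 132 RPKM. Eno3 made up 95.4% of enolase in the heart library and 0.20% in the other. Aldoc was at 1.23 against 242 RPKM, but Aldoa led in both at 4166 and 604 RPKM. Pgam2, the muscle phosphoglycerate mutase, was at 1858 against 10.2 RPKM and Pgam1 at 80.8 against 259 RPKM. Hk2 was at 182 against 1.19 RPKM and Hk1, the hexokinase of brain, nearly equal at 130 and 142 RPKM. Of the glucose transporters, the insulin-responsive Slc2a4 was at 99.5 against 2.31 RPKM and the neuronal Slc2a3 at 0.33 against 88.1 RPKM. Pygm, muscle glycogen phosphorylase, was at 1056 against 26.7 RPKM, and Pygb, named for the brain, was also higher in the heart library at 452 against 69.8 RPKM. Mpc1 and Mpc2, the pyruvate carrier, stood at 62.4 against 2.87 and 94.0 against 29.2 RPKM.

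The phosphocreatine system, which buffers ATP, used separate genes in the 2 libraries. Ckm and Ckmt2, the muscle forms, stood at 2225 against 2.06 and 1939 against 2.08 RPKM. Ckb and Ckmt1, the brain forms, stood at 32.6 against 390 and 16.1 against 324 RPKM. In the heart library Ckm and Ckmt2 made up 52.8% and 46.0% of the 4 kinases, and in the Snap25-rich library Ckb and Ckmt1 made up 54.3% and 45.1%. The summed level was 4212 and 718 RPKM. Among adenylate kinases, Ak1 was at 5330 against 566 RPKM and Ak5 at 0.43 against 53.8 RPKM. The ADP/ATP carrier Slc25a4 was at 2646 against 167 RPKM. Ngb, neuroglobin, had 2.25 RPKM in the Snap25-rich library and too few reads to compare, beside 62856 RPKM of Mb in the heart library.

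The sarcomere lists, 70 genes of thick filament, thin filament and Z-disc, took 17.0% of all reads of the heart library (95% Wilson interval 17.0 to 17.1) and 0.08% of those of the Snap25-rich library. In the other 4 libraries they took between 0.14% and 0.30%. Of 58 compared, 47 were past 4-fold higher and none lower, with a median of 4.90. Tpm1, the cardiac tropomyosin, took 4.17% of the reads, Myh6, the adult mouse cardiac myosin heavy chain, 3.85% and Mb, outside these lists, 2.90%.

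In the thick filament Myl2, the ventricular regulatory light chain, stood at 17347 against 7.18 RPKM and Myl7, its atrial counterpart, at 4983 against 2.49 RPKM. Myl3 was at 13906 against 9.40 RPKM and Myl4, the atrial essential chain, at 4547 against 113 RPKM. Myh6 stood at 6616 against 4.41 RPKM, and made up 99.4% of the sarcomeric heavy chains in the heart library, beside 0.26% for Myh7. These heavy chains share long stretches of sequence, so their shares are uncertain. All 4 atrial markers, Nppa, Myl7, Myl4 and Sln, were past 4-fold higher, so footprints on atrial and on ventricular light chain mRNAs were both abundant. Of 8 skeletal muscle markers 5 were compared and 3 of them were past 4-fold higher. These were Ckm, which cardiac muscle makes too, Acta1, at 76.9 against 2.89 RPKM and uncertain because its coding sequence is closely related to that of Actc1, and Myh1, at 8.18 against 0.58 RPKM. Tnni2 was at 13.0 RPKM and not listed in the Snap25-rich library. Myh2, at 0.65 against 0.20 RPKM, and Tnnt3, at 0.60 against 3.37 RPKM, lay within 4-fold on RPKM + 1. Actn3 was not listed in the heart library.

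In the thin filament Tnnt2, Tnni3 and Tnnc1, the cardiac troponins, stood at 20788 against 13.3, 24269 against 19.8 and 8196 against 19.2 RPKM. Actc1, cardiac actin, was at 2694 against 3.82 RPKM and Tpm1 at 42604 against 185 RPKM. Lmod3, which nucleates thin filaments, had 1667 reads or 119 RPKM in the heart library and was not listed in the other. Tnnt1, Tnni1, Neb and Tnnt3, of slow and fast skeletal muscle, stayed within 4-fold on RPKM + 1. They were at 88.3 against 68.1, 1.09 against 2.33, 0.14 against 0.29 and 0.60 against 3.37 RPKM. At the Z-disc Csrp3 was at 1999 against 2.02 RPKM, Ankrd1, a stretch-responsive protein, at 566 against 0.14 RPKM and Tcap at 2895 against 10.7 RPKM. Titin, encoded by Ttn, was at 41.2 against 0.43 RPKM, 95.8-fold (86.2 to 106.7), with 35778 reads spread over the longest coding sequence. Synm, at 5.09 against 15.8 RPKM, had the lowest ratio of this list.

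Promoters were examined because the sarcomere mRNAs were higher together. RefSeq windows on GRCm38.p6, 250 bases before to 50 after each start, were found for 56 of the 70 genes and for 10071 of the mRNAs compared. They were searched on both strands for 6 words. The first was TATAAA, the second a word of the MEF2 type, which is CTA followed after any 4 bases by TAG. This word is looser than the MEF2 site, whose 4 middle bases are A or T. The third was CATTCC, which muscle enhancer factors of the TEAD family bind, and the fourth was AGATAA, of the type bound by zinc finger factors such as Gata4. The E-box CACGTG and the cyclic AMP response element TGACGTCA completed the set. Of the sarcomere promoters 19.6% held the MEF2-type word, against 3.01% of those of all mRNAs compared, 4.15% of those past 4-fold higher and 2.77% of those past 4-fold lower. CATTCC was in 33.9% against 12.1%, TATAAA in 23.2% against 7.43% and AGATAA in 19.6% against 6.34%. CATTCC was also in 20.0% of ion channel promoters. The sarcomere windows were poorer in CpG, with a median of 6 against 21 over all mRNAs compared, and had a median GC content of 55.3% against 61.0%, and the part of base composition in the word shares was not tested. CACGTG was in 5.36% against 10.05% and TGACGTCA in 1.79% against 3.14%. The promoters of the nuclear respiratory chain and ATP synthase, matched for 56 genes as well, held the MEF2-type word in 1.79%. A match is a description of letters, and binding was not measured. The matches of Des and Ldb3 below hold a C among the 4 middle bases, so they fall outside the narrower MEF2 site. The 3 windows with the MEF2-type word and the highest ratios are those of Mybpc3 (chr2:91117894-91118193, plus strand, log2 ratio 8.58), Des (chr1:75360042-75360341, plus strand, 7.41) and Ldb3 (chr14:34588632-34588931, minus strand, 7.26), given 5′ to 3′ along the gene with the match in capitals.
Mybpc3: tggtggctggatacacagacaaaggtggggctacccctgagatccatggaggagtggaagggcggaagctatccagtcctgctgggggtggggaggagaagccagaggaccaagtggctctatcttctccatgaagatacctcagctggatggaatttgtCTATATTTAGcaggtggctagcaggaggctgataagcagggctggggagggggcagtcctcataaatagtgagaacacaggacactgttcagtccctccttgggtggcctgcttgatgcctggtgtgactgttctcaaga
Des: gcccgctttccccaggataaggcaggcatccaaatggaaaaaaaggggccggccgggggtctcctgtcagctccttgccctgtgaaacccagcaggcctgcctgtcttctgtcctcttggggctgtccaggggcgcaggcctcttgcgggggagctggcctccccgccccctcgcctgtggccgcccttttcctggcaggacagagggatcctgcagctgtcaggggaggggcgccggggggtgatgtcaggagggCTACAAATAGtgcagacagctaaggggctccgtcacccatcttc
Ldb3: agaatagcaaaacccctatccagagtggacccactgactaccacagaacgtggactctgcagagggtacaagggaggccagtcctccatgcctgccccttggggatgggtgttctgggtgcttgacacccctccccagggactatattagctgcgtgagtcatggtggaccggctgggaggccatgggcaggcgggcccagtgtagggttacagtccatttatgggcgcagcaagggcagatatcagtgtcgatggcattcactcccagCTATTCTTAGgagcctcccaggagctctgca

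Of 26 mRNAs of cell junctions that carry force, 15 were past 4-fold higher in the heart library and none lower. Unlike the sarcomere lists, they were not highest in the heart library by share of reads. They took 0.80% there, 0.15% in the Snap25-rich library and 0.37% to 0.93% in the other 4. Against the median of the other 4 libraries, the median log2 ratio was 0.81 for the heart library and -1.21 for the Snap25-rich library. Dsp, the desmosome linker desmoplakin, was at 96.1 against 1.81 RPKM and Sgcd, a sarcoglycan, at 49.8 against 1.06 RPKM. Tln2, Ctnnb1 and Parva had the lowest ratios, at 6.82 against 8.02, 49.5 against 40.6 and 15.0 against 10.7 RPKM, all within 4-fold.

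The microtubule system leaned to the Snap25-rich library, where tubulins, microtubule-associated proteins and motors together took 2.52% of reads against 0.48% in the heart library. Tubb3, the neuronal tubulin, was at 3.08 against 475 RPKM, Tubb4a at 8.99 against 472 RPKM and Tubb2a at 26.8 against 472 RPKM. They made up 23.9%, 23.8% and 23.7% of beta tubulin there, while Tubb4b and Tubb5 made up 50.3% and 36.0% in the heart library. Tubb6, at 28.5 against 0.10 RPKM, and Tuba8, at 99.5 against 3.88 RPKM, were past 4-fold higher in the heart library. Tuba1a was at only 3.43 and 18.9 RPKM, and shares long stretches with its copies. Map2, the dendritic protein, was at 1.15 against 563 RPKM, Stmn3 at 3.85 against 1213 RPKM and Map1a at 4.72 against 689 RPKM. Of 26 such proteins none was past 4-fold higher in the heart library. Mapt, which encodes tau, differed less than these, at 24.7 against 78.2 RPKM.

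Motors showed both neuronal and general members. Kif5a was at 0.44 against 199 RPKM and Kif5c at 0.77 against 118 RPKM, while Kif5b of the same family was at 101 and 115 RPKM. Kif1a, the carrier of synaptic vesicle precursors, was at 0.50 against 129 RPKM, and Kif1b at 38.7 against 137 RPKM. The dynein subunit Dync1i1 was at 0.19 against 135 RPKM and its paralogue Dync1i2 at 45.7 against 56.2 RPKM. The dynein heavy chain Dync1h1 stood at 42.5 against 27.7 RPKM and dynactin Dctn2 at 307 against 321 RPKM, a ratio of 0.96 (0.91 to 1.01). Of 22 motor mRNAs 9 were past 4-fold lower in the heart library and 13 within 4-fold.

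Intermediate filaments had the lowest median of any list, -7.05, with 4 of 7 past 4-fold lower. The neurofilament mRNAs Nefm, at 0.38 against 623 RPKM, Nefl, at 1.5004 against 602 RPKM, and Nefh, at 0.26 against 166 RPKM, and the internexin Ina, at 0.16 against 231 RPKM, were the 4. Nefm was 1620-fold higher in the Snap25-rich library (822 to 3753). Prph was at 0.24 against 2.32 RPKM. Vim, the vimentin of mesenchymal cells, was at 156 against 8.23 RPKM and Nes at 11.2 against 1.31 RPKM, both past 4-fold higher in the heart library. With at least 10 reads asked in both libraries the median was 2.40, since Nefm, Nefh, Ina and Prph then dropped out. Gfap, the astrocyte filament, had 33.3 RPKM in the Snap25-rich library and was not listed in the heart library. Des, the muscle filament, is in the Z-disc list, at 738 against 3.35 RPKM.

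Of 14 mRNAs of the membrane skeleton, which are spectrins, ankyrins and adducins, 5 were past 4-fold lower in the heart library, 35.7% beside 15.1% over all mRNAs, and 9 lay within 4-fold, among them Ank2 at 40.9 and 47.0 RPKM, Ank3 at 14.2 and 11.9 RPKM and Sptbn1 at 44.9 and 25.9 RPKM. Add2, at 0.51 against 56.6 RPKM, and Epb41l1, at 0.65 against 50.9 RPKM, had the lowest ratios. Actin regulators had a median of 0.03, which turned to -0.16 without Kri1, with 23 of 32 within 4-fold, beside 9648 of all 12918. Actb stood at 443 and 404 RPKM and Pfn1 at 872 and 467 RPKM, while Pfn2, the neuronal profilin, was at 188 and 1081 RPKM. Wasf1, of neuronal actin remodelling, was lowest at 1.46 against 111 RPKM, followed by Marcksl1 at 8.96 against 139 RPKM and Myo5a at 0.97 against 25.5 RPKM. Tpm4, at 417 against 48.4 RPKM, and Gsn, the severing protein gelsolin, at 1890 against 309 RPKM, were past 4-fold higher in the heart library.

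Paralogue pairs put the exchange of one family member for another on a common scale. In the 37 pairs described both members were compared, and the member named first had the higher ratio. The first is a heart or muscle form in many pairs but not in all. In the heart library Slc25a13, named first, stood at 22.5 RPKM beside 301.5 for Slc25a12. The pairs and their order were chosen with earlier results of these data known, so the direction is no finding. In 26 of the 37 the first member held over 50% of the pair's summed RPKM in the heart library and under 50% in the Snap25-rich library. In 15 the 2 members were past 4-fold in opposite directions. The first member led in both libraries in 8 pairs, such as Atp2a2 over Atp2b2, at 99.99% and 73.1%, and Slc8a1 over Slc8a2, at 99.95% and 77.1%. Such shares depend on the partner chosen. Of all 7 calcium pumps Atp2a2 made up 39.8% in the Snap25-rich library, where Atp2b1 was at 798 RPKM beside 347 for Atp2b2. The second led in both in 3 pairs, among them Slc25a12 over Slc25a13 and Cfl1 over Cfl2. For lactate dehydrogenase Ldhb, the heart form, made up 52.6% and 33.4%, so Ldha was nearly as abundant in the heart library at 1259 RPKM beside 1397.

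**Figure D3:**
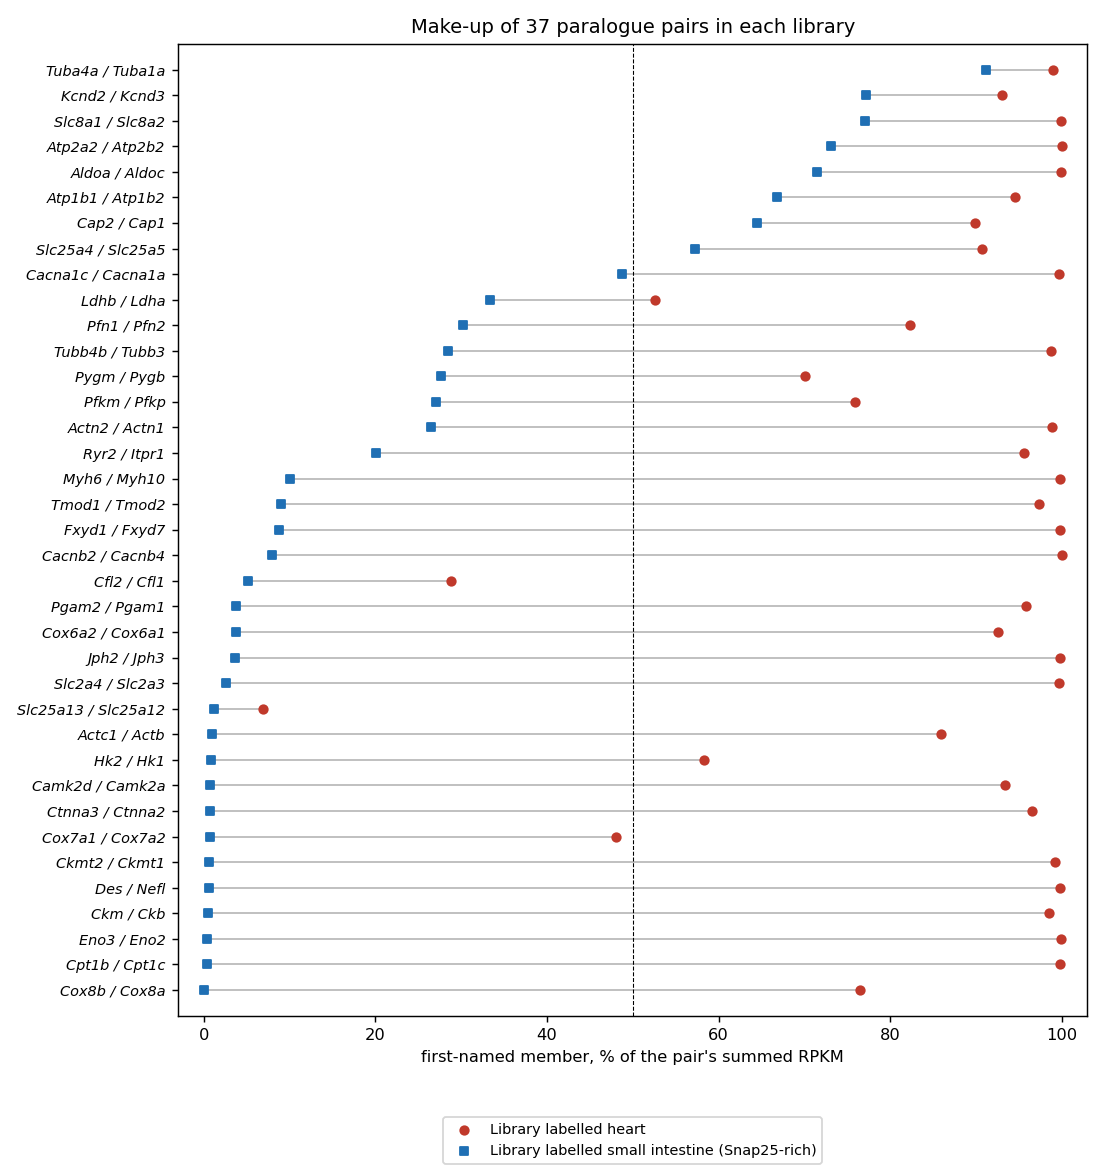
Share of the first-named member in the summed RPKM of its pair, in percent (x axis), for 37 paralogue pairs in the heart library (circles) and the Snap25-rich library (squares), with grey lines joining the 2 values of a pair. In 26 pairs the line crosses the dashed 50% mark; Slc25a13 and Cfl2 stay under it in both libraries.

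The ratios of 2 libraries do not say on which side a level departs, so each library was also set against the median of the other 4. Voltage-gated potassium pore subunits had a median of 0.15 in the heart library and 3.79 in the Snap25-rich library on that log2 scale, and calmodulin, CaM kinase and calcineurin 0.26 and 4.31. These lists stood apart on the Snap25-rich side alone. Complex I had 2.63 and -0.16, and the thin filament 5.72 and 0.07, so both stood apart on the heart side. Fatty acid uptake and oxidation moved on both sides, at 2.19 and -1.82. Inward rectifiers had medians above 2 in both libraries, at 2.55 and 2.25. Kcnj3, Kcnj11 and Kcnj12 stood above 2 in each, while Kcnj5 had 4.74 and 0.65 and Kcnj6 0.13 and 6.09. The heart library held the highest level of the 6 libraries for 168 of 228 energy metabolism mRNAs and the Snap25-rich library for 81 of 131 ion channel and pump mRNAs, beside 1858 and 3162 of all 12918.

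**Figure D4:**
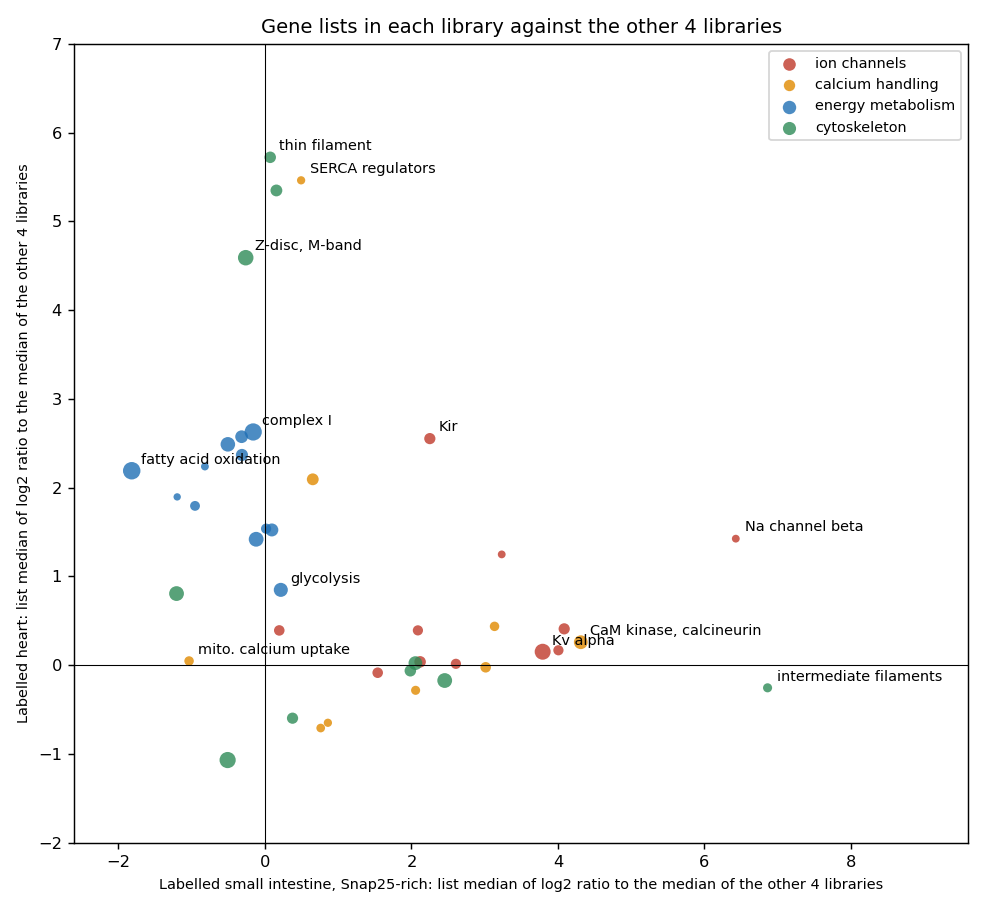
List medians of the log2 ratio of RPKM + 1 to the median of the other 4 libraries, for the Snap25-rich library (x axis) and the heart library (y axis), 1 point for each of 42 lists with its area growing with the number of members. Sarcomere lists sit high near x = 0. Voltage-gated potassium pore subunits (Kv alpha) and the CaM kinase list sit right near y = 0, while sodium channel beta subunits lie at 1.43 on the y axis. Inward rectifiers (Kir) lie above 2 on both axes.

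**Figure D5:**
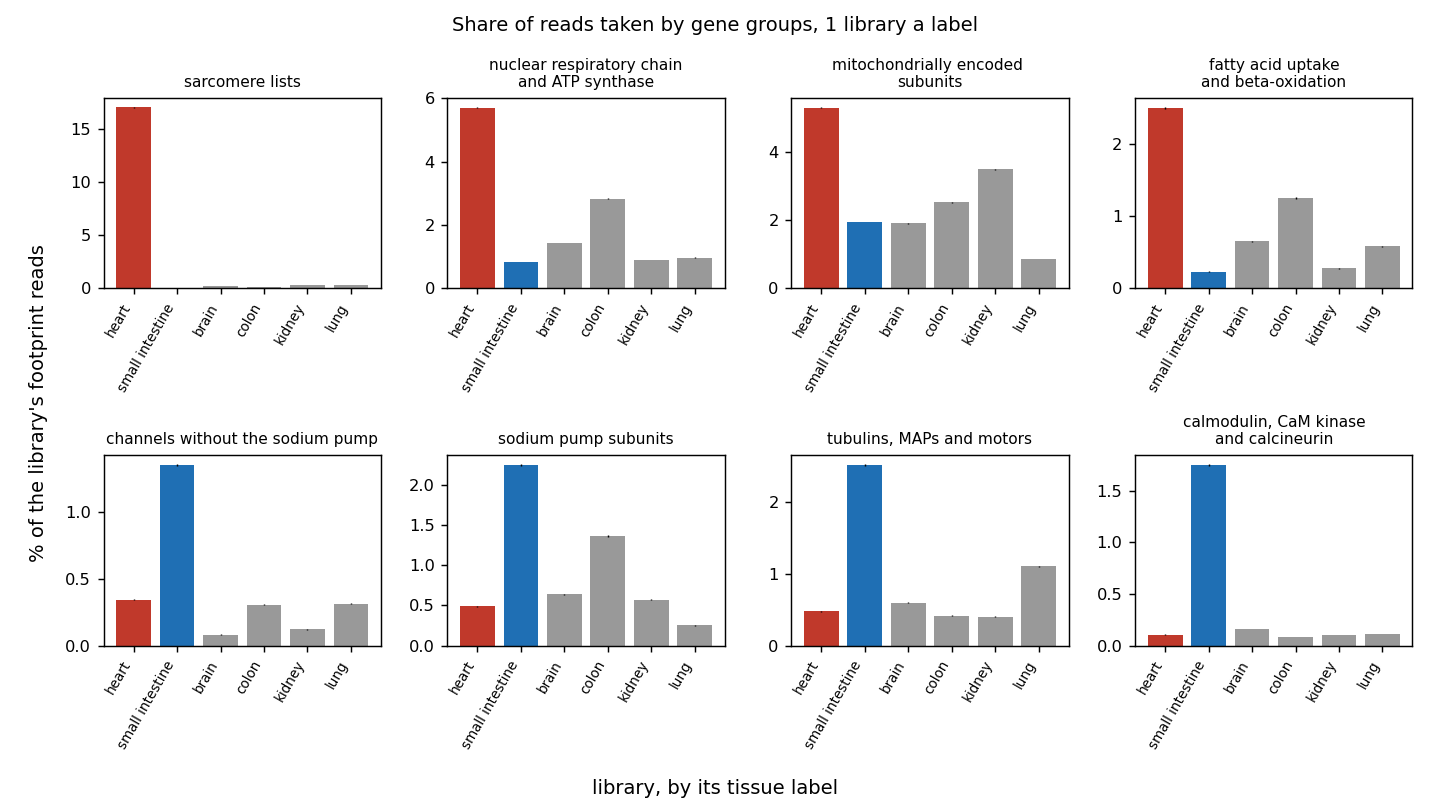
Share of a library's footprint reads, in percent (y axis, from 0, a separate scale in each panel), taken by 8 gene groups in each of the 6 libraries named by tissue label (x axis), with 95% Wilson intervals that are too narrow to see. The sarcomere lists reach 17.0% in the heart library and stay at or under 0.30% in the other 5, and the channels without the sodium pump reach 1.35% in the Snap25-rich library.

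A further 677 mRNAs with 10 or more reads were listed in 1 of the 2 libraries alone, 204 in the heart library and 473 in the Snap25-rich library. The heart side was led by Nppb, the ventricular natriuretic peptide, with 9689 reads or 3262 RPKM, Dhrs7c with 2536 reads, Lmod3 with 1667 and the cardiac transcription factor Nkx2-5 with 249. The other side was led by Mog, of myelin, with 3670 reads or 648 RPKM, and Cntn4, a neuronal adhesion protein, with 1815 reads. Of the 165 genes of ion channels and the sodium pump 13, and of the 94 of calcium handling 2, were in the Snap25-rich library alone. Over all mRNAs there were 473 of this kind beside 12918 compared. None of either list was listed with 10 reads in the heart library alone, beside 204 over all mRNAs. Of the 215 genes of the cytoskeleton 6 were listed in the heart library alone and 4 in the Snap25-rich library alone.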

How the data were processed

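Ribo-seq libraries of 6 tissues, 1 a label, were analysed. Per the labels and the methods of the study, reads were trimmed with cutadapt and aligned with STAR, and footprints on coding sequences were counted. The deposited values are RPKM per mRNA, computed by the authors; multi-mapped reads were dropped. The mouse build named in the submitters' processing notes is GRCm39.

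RPKM times coding length, divided by its smallest non-zero value, gave whole reads for 100% of values in every library (tolerance 0.01), and totals of 4504853 to 10635031 reads. Reads carry no molecular identifiers, so intervals cover counting error only. Gene names came from GENCODE mouse release 39, which matched 99.9% of mRNAs. mRNAs listed in both libraries with at least 10 reads in either were compared by the log2 ratio of RPKM + 1, and past 4-fold means a log2 ratio of at least 2 or at most -2. Since the unit is RPKM from 1 library a side, no count model was fitted and no p-value is given. Intervals of ratios are 95% Clopper-Pearson intervals of the heart library's share of an mRNA's reads, and a value of 0 was replaced by 3 reads for a lower bound. Of 773 genes in 42 lists and 14 marker lists, 765 were listed in some library and 698 compared. The members, lists and pairs were chosen with earlier results of these data known. Named were, for each list, the 3 highest and 3 lowest ratios and the most abundant member in each library, members listed in 1 library alone, every member of lists of up to 10, both members of pairs, the 10 highest and lowest ratios over all mRNAs and the cell type markers, though the text leaves out some of them. Some members are not reported here, and 3 of the 40 pairs compared (of 44) are not among the 37 described. Counts and medians of lists cover all their members compared. Members named beyond that rule were chosen after their values were seen. The ratio, threshold and interval steps were tested on simulated data. Tables were handled in pandas 2.3.3 and numpy 2.4.6 under Python 3.11.15, intervals came from scipy 1.17.1, and plots were drawn with matplotlib 3.10.9. Alternatives were other pseudocounts, read minimums and fold thresholds, totals without Kri1 or mitochondrially encoded mRNAs, centring and thinning. Protein sequences were not used here.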

Additional observations from a re-analysis of the deposited data

Results flagged for a closer look

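Defining markers of the 2 tissues were also measured in the 4 libraries outside the comparison. Myh6 was above the level of 3 reads in the libraries labelled brain (0.71 RPKM, 44 reads), colon (41.3 RPKM, 1081 reads), kidney (7.58 RPKM, 334 reads) and lung (77.1 RPKM, 3465 reads), beside 4.41 RPKM in the Snap25-rich library and 6616 RPKM in the heart library. Snap25 was above that level in the libraries labelled brain (0.76 RPKM, 5 reads) and kidney (13.2 RPKM, 62 reads), beside 1.98 RPKM in the heart library. Their source was not tested.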

How the results depend on the processing

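The 4 subjects kept the sign of their medians under all 10 alternative settings tried for medians, but their size depended on the setting. With 2-fold as the threshold, 2913 mRNAs were higher and 3713 lower in the heart library. A pseudocount of 5 gave 736 higher and 1106 lower, a median over all mRNAs of -0.067 and a median of -1.46 for ion channels, and a pseudocount of 0.1 gave -3.96 for ion channels and -1.63 for calcium handling. With at least 10 reads in both libraries, 957 were higher and 1055 lower, the overall median was -0.017, that of ion channels -1.43 and that of calcium handling only -0.087, near 0 beside -1.13, since mRNAs near 0 in 1 library drop out. With at least 50 reads in either, these 2 medians were -3.39 and -1.62. Counting mRNAs listed in either library gave an overall median of -0.16. Leaving out Kri1 gave -0.29 overall and 2.33 for energy metabolism, with 1174 higher and 2192 lower, leaving out mitochondrially encoded mRNAs gave -0.076, and centring gave 0. Over the 42 lists, 366 of 419 alternative medians moved by at most 0.5, while 24 of the 419, in 14 lists, moved by over 1 and 6 changed sign. The large moves came with the read minimum, the pseudocount or mRNAs listed in either library, and among them were sodium channel alpha subunits (-1.97 to -5.02 with at least 10 reads in both), potassium channel auxiliary subunits (-3.52 to -6.04 with at least 50 reads in either and -1.81 with a pseudocount of 5), connexins (-3.40 with at least 50 reads in either and -1.71 over mRNAs listed in either library), SERCA regulators (4.24 to 2.15 with at least 10 reads in both), junctional and luminal sarcoplasmic reticulum proteins (0.71 to 2.14 with the same minimum) and the thick and thin filaments (5.32 to 6.89 and 4.46 to 6.22 with either minimum). The changes of sign were intermediate filaments (2.40 with at least 10 reads in both), cytoplasmic actin and its regulators (-0.16 without Kri1) and connexins (0.26 with no read minimum, 0.033 without mitochondrially encoded mRNAs, 0.11 centred and 0.037 after thinning to the lower total). No paired analysis was possible because each tissue has 1 library. Without replicates no ratio can be set against the spread between animals.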
